A study of Oreochromis niloticus with 16 samples.

Results

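miR-142 and miR-223 are miRNAs of blood and immune cells, and their mature forms were followed here through 16 small RNA libraries of Nile tilapia, the farmed cichlid Oreochromis niloticus. The members were chosen by name, as every entry whose mature name is miR-142, miR-150, miR-155 or miR-223 with an optional letter, both arms and all copies included. An entry is 1 arm of 1 precursor locus. The rule found 6 of the 734 named entries, which carry 4 mature names from 3 hairpins. They are miR-142a-5p and miR-142a-3p, each at the loci mir-142a-1 and mir-142a-2, and miR-223-5p and miR-223-3p at the single locus mir-223. miR-150 and miR-155 were not analysed here.

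A miRNA hairpin is cut into a duplex of a 5p and a 3p strand, and the strand that stays in the silencing complex binds target mRNAs and lowers their output. In vertebrates miR-142 is made across the blood cell lineages, and in mouse and zebrafish its loss disturbs the development and function of white blood cells. miR-223 is a miRNA of the myeloid lineage, most of all of neutrophils, and in mouse it restrains the number and activation of granulocytes. Both serve as markers of white blood cells in tissues that hold blood.

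All fish were of the Chitralada strain, and the labels name no treatment. Whole embryos were sampled on days 2 and 3 post-fertilization (dpf), both labelled gastrula to segmentation, on day 4 (pharyngula) and on day 5 (hatching), and whole late larvae on day 10. Of the 11 adult libraries, 6 were a female and a male library each of white muscle, red muscle and brain. The other 5 were ovary, testis, heart of females, and liver and eye taken from both sexes. Each condition had 1 library, and in the 3 tissues with 2 libraries the female and the male library stood as replicates. Both female muscle libraries share a letter and number in their titles, and so do female brain and ovary. That this means the same fish is an inference. In tests on these 6 libraries the p-values measure the spread between them, which may be smaller or larger than the spread between fish. In the tests that use the stages, libraries of different stages or tissues stand in for replicates. The spread there includes differences between stages or tissues.

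Levels are given as counts per 1000000 (CPM) of the reads assigned to miRNAs in a library, with reads that match several loci divided over them. These totals ran from 833147 reads at 10 dpf to 11517367 in male red muscle, so 1 read was worth less in the deeper libraries. Intervals are exact Poisson intervals for levels and Wilson intervals for shares, both at 95%, and cover counting error only, since the reads carry no molecular identifiers. Where a library held 0 reads, a floor of 3 reads is given. Single miRNAs took a large part of some libraries, and CPM was therefore also scaled by trimmed mean of M-values (TMM), whose factors ran from 0.216 at 2 dpf to 3.21 at 5 dpf and from 0.552 to 1.66 in adult tissues. Brain and liver carried their own miRNAs. The neuronal miR-124a-3p stood at 30369 CPM (female) and 14668 CPM (male) in brain, against at most 1.97 CPM in muscle. The liver miRNA miR-122-5p was at 450150 CPM in liver. Red muscle carried the muscle miRNAs as a group, though little miR-1-3p. The muscle miRNA miR-1-3p was at 128720 CPM (female) and 171910 CPM (male) in white muscle. In red muscle it was at 1405 and 189 CPM, beside 472 and 238 CPM in brain. The muscle miRNA miR-206-3p was at 4292 and 3780 CPM in red muscle, against 2.16 and 7.53 CPM in brain. Summed over 11 names of miR-1, miR-133, miR-206 and miR-499, red muscle had 36660 and 32865 CPM. White muscle had 281030 and 310650 CPM by that sum, and brain 545 and 291 CPM.

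miR-142a-5p was the most abundant member in every library. Among the embryos and larvae it stood at 39.7 CPM at 2 dpf (79 reads), 178 CPM at 3 dpf, 474 CPM at 4 dpf, 983 CPM at 5 dpf and 1514 CPM at 10 dpf. In CPM each stage was above the one before it, with intervals that did not overlap, and 10 dpf was 38.1-fold above 2 dpf. In skeletal muscle it was at 505 CPM in female white muscle, 723 CPM in male white muscle, 3559 CPM in female red muscle (30651 reads) and 536 CPM in male red muscle. Female red muscle was the highest of the 16 libraries, 2.35-fold above 10 dpf, and 6.64-fold above male red muscle. The other adult values were 395 CPM in female brain, 142.5 CPM in male brain, 63.7 CPM in ovary, 471 CPM in testis, 787 CPM in liver, 224 CPM in heart and 34.4 CPM in eye. Eye and ovary were the lowest adult tissues, and the median of the adult libraries was 471 CPM.

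The order of miR-142a-5p levels has little support between neighbours. Within a tissue, the libraries of the sexes differed by up to 6.64-fold, and no library differed from the next in the order by that much. The largest step, 2.35-fold, lay between female red muscle and 10 dpf. The lowest places also depended on other miRNAs. In the eye and at 2 dpf, miR-183-5p and miR-10b-5p took 55.0% and 58.6% of the reads, and without the leading miRNA of each library miR-142a-5p stood at 76.5 and 95.9 CPM there. After TMM scaling ovary (61.8 CPM) and eye (62.3 CPM) were lowest, and female red muscle remained highest at 4996 CPM. Among the miRNA names detected in a library, miR-142a-5p lay between the 60.8th percentile in eye and the 92.1st in female red muscle.

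**Figure D1:**
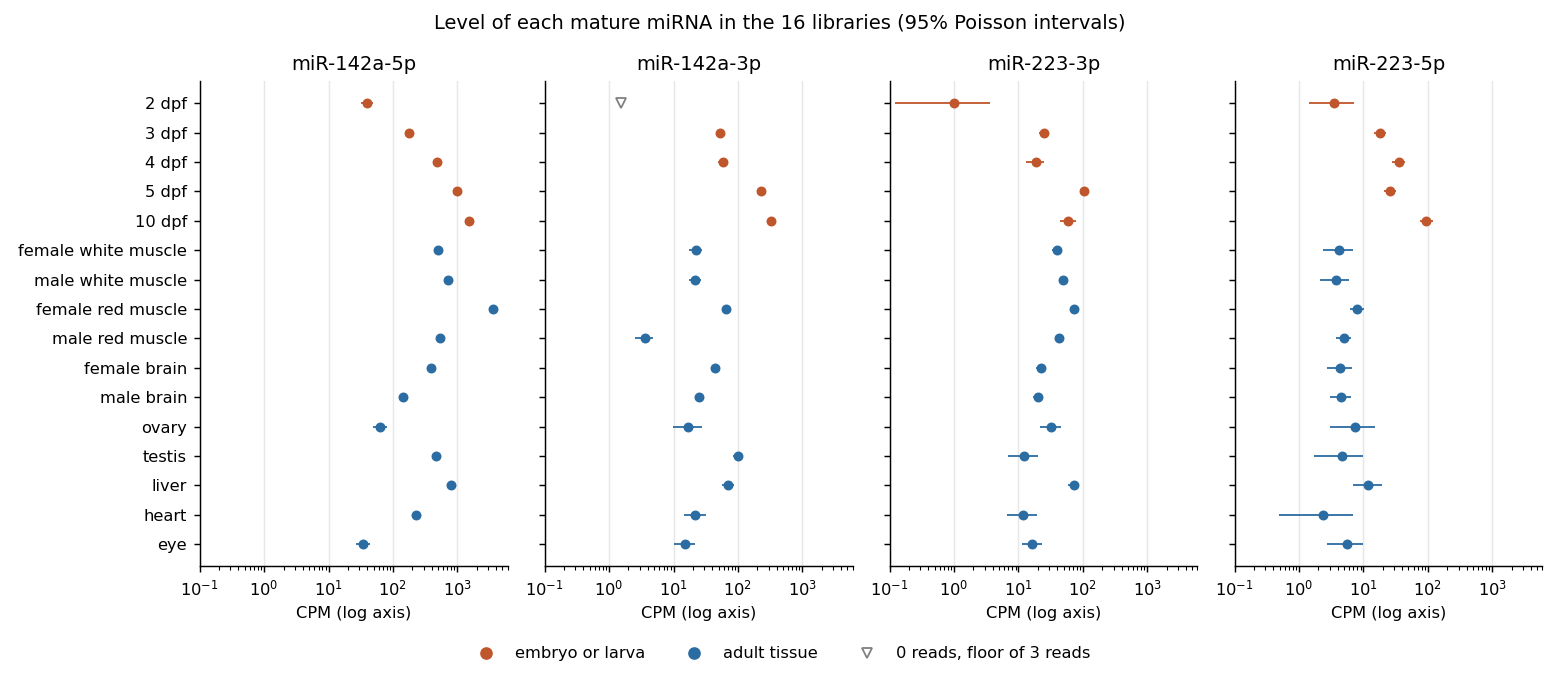
Level of miR-142a-5p, miR-142a-3p, miR-223-3p and miR-223-5p in CPM on a log axis for each of the 16 libraries, with 95% Poisson intervals, embryos and larvae in orange, adult tissues in blue and an open triangle for the floor of 3 reads where there were 0 reads. miR-142a-5p peaks in female red muscle at 3559 CPM, and miR-223-5p lies above all adult libraries at 3, 4, 5 and 10 dpf in CPM, though its ranges overlapped after TMM scaling.

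miR-142a-3p, the partner strand, followed the stages but not the muscle libraries of miR-142a-5p. No read was seen at 2 dpf, where the floor of 3 reads is 1.51 CPM and the Poisson interval reaches 1.86 CPM. The level was then 52.0 CPM at 3 dpf, 58.9 CPM at 4 dpf, 232 CPM at 5 dpf and 326 CPM at 10 dpf. The 5 and 10 dpf libraries held the highest levels of all 16 in CPM. In white muscle it stood at 22.3 CPM (female) and 21.5 CPM (male), and in red muscle at 65.5 CPM (female) and 3.56 CPM (male, 41 reads). Male red muscle was the lowest library with any read, 18.4-fold below female red muscle. Brain had 43.9 CPM (female) and 24.8 CPM (male). Testis had 98.6 CPM, liver 70.4 CPM, heart 21.9 CPM, ovary 17.0 CPM and eye 15.0 CPM. In CPM, testis was thus the highest adult tissue for miR-142a-3p, whereas miR-142a-5p was higher in liver, white muscle and red muscle than in testis. Since the pair of red muscle libraries differed by 18.4-fold, no neighbours in the CPM order of miR-142a-3p differed by more than the pair. After TMM scaling miR-142a-3p was highest in testis (145 CPM), then 10 dpf (131 CPM), female red muscle (91.9 CPM) and 5 dpf (72.2 CPM). On that scale miR-142a-5p stood at 694 CPM in testis, above liver (473 CPM) and female white muscle (564 CPM). Male white muscle (999 CPM) and the female and male red muscle libraries (4996 and 967 CPM) remained above testis.

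The mir-142a copies could be told apart only through the 5p strand. Of 2959 reads of miR-142a-3p in all libraries, 2958 matched both loci and 1 matched mir-142a-1 alone. Of 53587 reads of miR-142a-5p, 41284 matched both loci, 7348 only mir-142a-1 and 4955 only mir-142a-2. The shared part ran from 34.2% at 2 dpf to 87.8% in female red muscle, with a median of 62.9%. These numbers follow from the whole-number and divided counts, in which both loci lost the same number of reads by the division in each of the 16 libraries, for either arm.

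Among reads that matched 1 copy only, both copies were seen in every library. At 2 dpf 2 such reads matched mir-142a-1 and 50 matched mir-142a-2, so the share of mir-142a-1 was 3.85% (1.06 to 12.98%), the lowest of all. At 3 dpf it was 74.6% (70.0 to 78.7%), the highest, from 288 and 98 reads. The later stages had 46.4% (4 dpf), 54.6% (5 dpf) and 39.7% (10 dpf). In white muscle it was 68.1% for the female and 66.0% for the male, and in red muscle 73.4% and 46.5%. The interval lay above 50% in 8 libraries and below 50% in 4, which were 2 dpf, 10 dpf, male red muscle and liver (36.5%). The red muscle libraries thus lay on opposite sides of 50%, while the intervals of the white muscle libraries overlapped. Reads that differ between the copies need not be a fixed part of what each copy makes, and the amount made by each copy is uncertain.

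**Figure D2:**
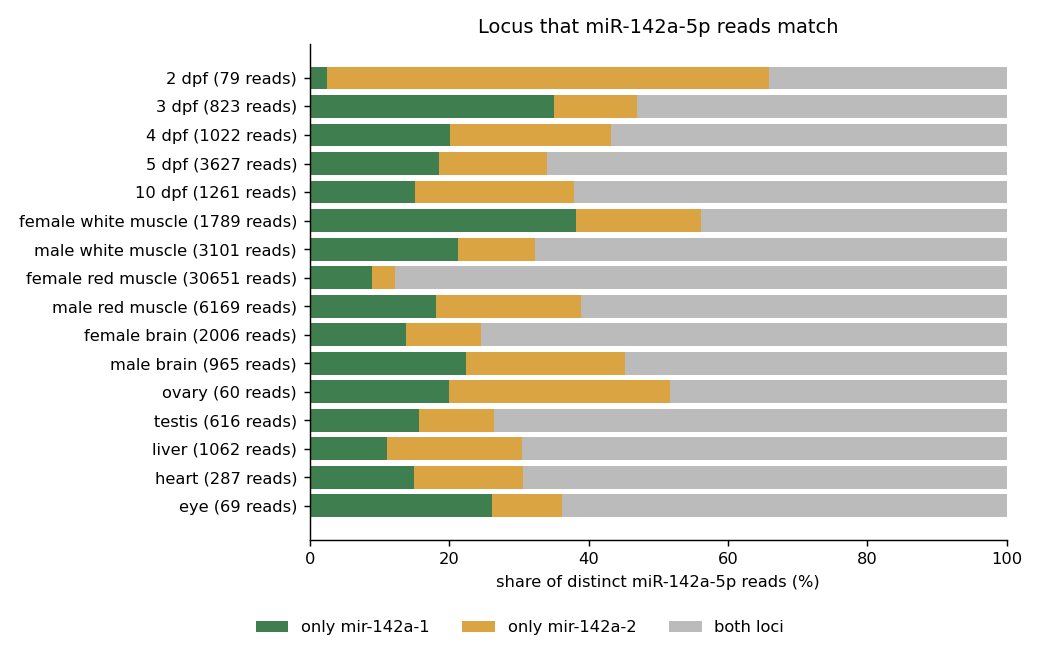
Share of the distinct miR-142a-5p reads of each library, in percent, that matched only mir-142a-1 (green), only mir-142a-2 (yellow) or both loci (grey), with the number of reads beside the library name. The grey part runs from 34.2% at 2 dpf to 87.8% in female red muscle, and the green part is smallest at 2 dpf.

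miR-223-3p was a scarcer miRNA than miR-142a-5p in every library. It had 2 reads at 2 dpf (1.01 CPM) and stood at 25.1 CPM at 3 dpf, 18.6 CPM at 4 dpf, 104 CPM at 5 dpf and 58.8 CPM at 10 dpf. The peak at 5 dpf, the hatching stage, was the highest of the 16 libraries in CPM. White muscle had 39.2 CPM (female) and 48.3 CPM (male), and red muscle 72.2 CPM (female) and 42.5 CPM (male). All 4 muscle libraries lay above both brain libraries, which had 22.6 CPM (female) and 19.9 CPM (male). Liver had 72.6 CPM, ovary 31.9 CPM, eye 16.5 CPM, testis 12.2 CPM and heart 11.7 CPM. Adult libraries spanned 6.20-fold for miR-223-3p, against 103-fold for miR-142a-5p and 27.7-fold for miR-142a-3p. The largest difference within a pair was 1.70-fold, in red muscle. Apart from the step of 11.6-fold from heart down to 2 dpf, which rests on 2 reads at 2 dpf, no step in the order exceeded it. After TMM scaling miR-223-3p was highest in female red muscle at 101 CPM, and 5 dpf was at 32.4 CPM, rank 6. On that scale 2 dpf was lowest at 4.66 CPM, next to 4 dpf at 6.52 CPM.

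miR-223-5p, the other strand, had its 4 highest levels in embryos and larvae. It was at 3.52 CPM at 2 dpf (7 reads), 18.0 CPM at 3 dpf, 35.7 CPM at 4 dpf, 25.7 CPM at 5 dpf and 94.8 CPM at 10 dpf. In adults it ran from 2.34 CPM in heart (3 reads) to 11.9 CPM in liver (16 reads), with a median of 4.59 CPM. The 4 stages from 3 to 10 dpf lay above all 11 adult libraries in CPM. After TMM scaling the 5 stages ran from 8.03 to 38.2 CPM and the adult libraries from 2.45 to 11.2 CPM, so that the ranges overlapped. Female and male values were 4.23 and 3.73 CPM in white muscle, 8.01 and 4.95 CPM in red muscle and 4.33 and 4.43 CPM in brain. Of the differences within pairs, the interval of the ratio excluded 1 in red muscle alone (1.62-fold, 1.12 to 2.34).

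The hairpins differed in the strand they kept. With at least 50 reads over both arms, mir-142a could be followed in all 16 libraries, and the 5p strand was dominant, with an interval above 50%, in each of them. Its share ran from 69.7% in eye (60.0 to 77.9%) to 99.3% in male red muscle and to 100% at 2 dpf, where all 79 reads were 5p (95.4 to 100%). There were 2.30 reads of miR-142a-5p per read of miR-142a-3p in eye, 4.64 at 10 dpf, 8.996 in female brain, 33.7 in male white muscle and 150 in male red muscle. The 4 muscle libraries had 5p shares of 95.8 to 99.3%, above all other libraries but that of 2 dpf. For mir-223 the 3p strand was dominant in 9 of the 11 libraries with at least 50 reads and the 5p strand in 2, which were 4 dpf and 10 dpf.

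The 5p share of mir-223 was higher in the stages than in the adult tissues. At 3 dpf it was 41.7%, at 4 dpf 65.8% (56.8 to 73.8%), at 5 dpf 19.9% and at 10 dpf 61.7% (53.1 to 69.7%). The 7 adult libraries with at least 50 reads lay between 7.17% in male white muscle and 18.2% in male brain. The stage mean was 47.3% ± 21.1 (SD, n = 4) and the adult mean 12.2% ± 3.95 (SD, n = 7), a difference of 35.1 percentage points (two-sided exact permutation test over libraries, p = 0.00606, the smallest that 4 against 7 libraries can give, or 0.0121 after Benjamini-Hochberg adjustment over the 2 hairpins). This comparison was chosen after the shares had been seen, so the p was fixed by their lack of overlap and adds no support. The adjustment does not cover the other hairpins. Libraries of different stages and tissues stand as replicates in the comparison. The ranges of stages and adults did not overlap, and the same was true of 33 of 216 hairpins (15.3%) with enough reads. By the size of the difference mir-223 was at place 8 of the 216. Ovary, testis, heart and eye had 18 to 44 reads of mir-223 and 5p shares of 16.7 to 27.3%, and with them the ranges overlapped, because 5 dpf lay below testis and eye. At 2 dpf 7 of 9 reads were 5p (77.8%, 45.3 to 93.7%). For mir-142a the share differed by -3.16 points between stages and adults (exact permutation p = 0.522).

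**Figure D3:**
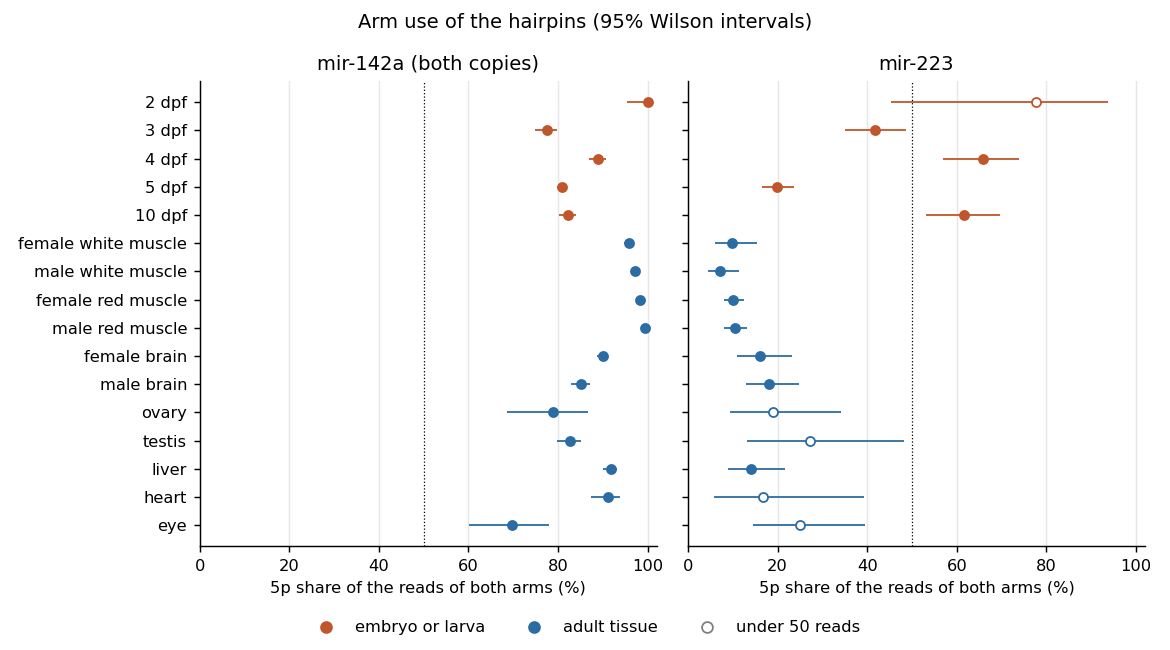
Share of 5p reads among the reads of both arms, in percent with 95% Wilson intervals, for mir-142a with both copies together and for mir-223 in each library, with open circles for libraries under 50 reads and a dotted line at 50%. mir-142a lies above 50% in all 16 libraries, and mir-223 lies below it in every adult library and above it at 4 and 10 dpf.

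Brain held less miR-142a-5p and miR-223-3p than the mean of white and red muscle. In edgeR's quasi-likelihood test on 6 libraries, 3 of the 6 member entries were lower, 0 were higher and the other 3 had an adjusted p above the threshold of 0.05. Over all 494 entries tested 63.2% passed in either direction and 30.6% were lower in brain, so 3 of 6 is no result particular to the members. miR-142a-5p fell by 2.51 (log2) at mir-142a-1 (standard error 0.82, adjusted p = 0.0166 from edgeR) and by 2.39 at mir-142a-2 (standard error 0.81, adjusted p = 0.0197 from edgeR). These entries share most of their reads and are not separate evidence. Both brain libraries lay below all 4 muscle libraries for it. miR-223-3p fell by 1.76 in log2 units (standard error 0.67, adjusted p = 0.0356 from edgeR), with both brain libraries again below all 4 muscle libraries.

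The partner strands did not pass. miR-142a-3p had a log2 difference of -0.06 (standard error 0.86, adjusted p = 0.956 from edgeR), with brain between female and male red muscle. miR-223-5p had one of -0.74 (standard error 0.72, adjusted p = 0.387 from edgeR). The median over the members was -1.25 and that over all 494 entries -0.13. The calls and sizes depended on single libraries. Where a library is left out, its tissue keeps 1 library, and only the size is given. Without male brain the values were -1.61 for miR-142a-5p at mir-142a-1 and -1.31 for miR-223-3p. Without female red muscle they were -1.11 and -1.23, and miR-142a-3p was then higher in brain by 1.83. For miR-223-3p the value was -1.74 without female brain, and -1.95 and -1.78 without female and male white muscle. The call on miR-223-3p was lost with sex as a block (-1.76, edgeR adjusted p = 0.0650), with RLE factors (0.0537) and with library totals alone (0.0953). Over all 494 entries 297, 305 and 309 passed in these settings, against 312 in the main fit.

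Red cell miRNAs were also lower in brain than in muscle, whereas a wider blood list went both ways, as all entries together did. Of all 494 entries tested, 151 (30.6%) were lower in brain and 161 were higher. miR-144 and miR-451, the miRNAs of red blood cells, gave 5 entries that were tested, and 5 of 5 were lower in brain, with a median log2 difference of -3.19. Summed over their 6 names, female and male libraries had 907 and 599 CPM in brain, 1967 and 1597 CPM in white muscle, and 16962 and 3723 CPM in red muscle. A wider list of miRNAs found in blood and immune cells (miR-21, miR-146, miR-181, miR-221, miR-222, miR-462 and miR-731), most of which other cells also make, gave 10 higher and 10 lower of 28. That split was near the one over all entries. The 28 entries of the list are not all separate miRNAs. The lower ones repeat miR-181a-5p at mir-181a-1 to mir-181a-4 and miR-21-5p at mir-21-1 and mir-21-2. The higher ones repeat miR-181b-5p-2 at mir-181b-1 and mir-181b-2 and miR-222a-3p at mir-222a-1 and mir-222a-2. The endothelial miR-126 gave 1 lower of 2, and the epithelial list 6 lower and 0 higher of 10, with a median of -2.87. How much of a member's level came with blood held in the tissue was not tested. In these bulk libraries, fewer cells of a type and less RNA per cell cannot be told apart.

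No member passed the test between red and white muscle. Of 6 entries 0 passed, against 11.1% of the 494 entries tested. For miR-142a-5p, red muscle was higher than white by 1.73 on the log2 scale at mir-142a-1 (standard error 0.85, adjusted p = 0.226 from edgeR) and by 1.92 at mir-142a-2 (standard error 0.85, adjusted p = 0.172 from edgeR). At mir-142a-2 the unadjusted p was 0.0426, and it was the 1 member entry with an unadjusted p under 0.05. DESeq2 called 0 as well, against 18.6% of all entries by that tool. The difference lay in female red muscle, since male red muscle at 536 CPM was between female and male white muscle at 505 and 723 CPM, and without the female library the value at mir-142a-1 was -0.26. The other members had differences of 0.48 for miR-142a-3p, 0.45 for miR-223-3p and 0.78 for miR-223-5p, with standard errors from 0.71 to 0.99. Among red cell entries 2 of 5 were higher in red muscle and 0 lower, and among the wider blood list 4 of 28 were higher and 1 lower. All 4 higher entries were miR-181a-5p, at mir-181a-1 to mir-181a-4, with the same log2 difference of 2.34. They are not separate evidence.

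Female and male libraries differed in single tissues without a shared direction. miR-142a-5p was higher in the female in red muscle (6.64-fold, 6.47 to 6.83) and in brain (2.77-fold, 2.56 to 2.99) and lower in white muscle (0.698-fold, 0.658 to 0.740). miR-142a-3p was 18.4-fold higher in female than in male red muscle (13.4 to 25.9) and 1.77-fold higher in brain (1.44 to 2.17), while in white muscle the ratio was 1.04 (0.759 to 1.42). These intervals cover counting error in 1 library of each sex. With tissue as a block, edgeR called 0 of the 6 member entries and 0 of 494 entries (0%), with an unadjusted p under 0.05 for 0 members and 5 entries, and DESeq2 called 0 with 5 entries under that p. The fitted log2 difference of female over male was 1.22 for miR-142a-5p at mir-142a-1 (standard error 0.70, edgeR adjusted p = 0.993), 1.44 for miR-142a-3p (standard error 0.88), 0.02 for miR-223-3p (standard error 0.70) and 0.08 for miR-223-5p (standard error 0.93). Without red muscle the values were 0.21 for miR-142a-5p at mir-142a-1 and 0.13 for miR-142a-3p.

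Female red muscle had the highest level of red cell miRNAs among the adult libraries. Their sum was 4.56-fold that of male red muscle, beside 6.64-fold for miR-142a-5p, 18.4-fold for miR-142a-3p, 1.70-fold for miR-223-3p and 1.62-fold for miR-223-5p. The strands in this sum did not differ to the same degree. In red muscle miR-144-5p stood at 4448 CPM (female) and 295 CPM (male), and miR-451-5p-2 at 9275 and 3290 CPM. Endothelial miR-126 was 1.57-fold higher, the epithelial list 3.26-fold (255 against 78.3 CPM), the liver list 3.48-fold (1.51 against 0.434 CPM), the muscle list 1.12-fold, the wider blood list 0.867-fold and the neuronal list 0.504-fold. The part that blood has in these ratios was not tested.

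**Figure D4:**
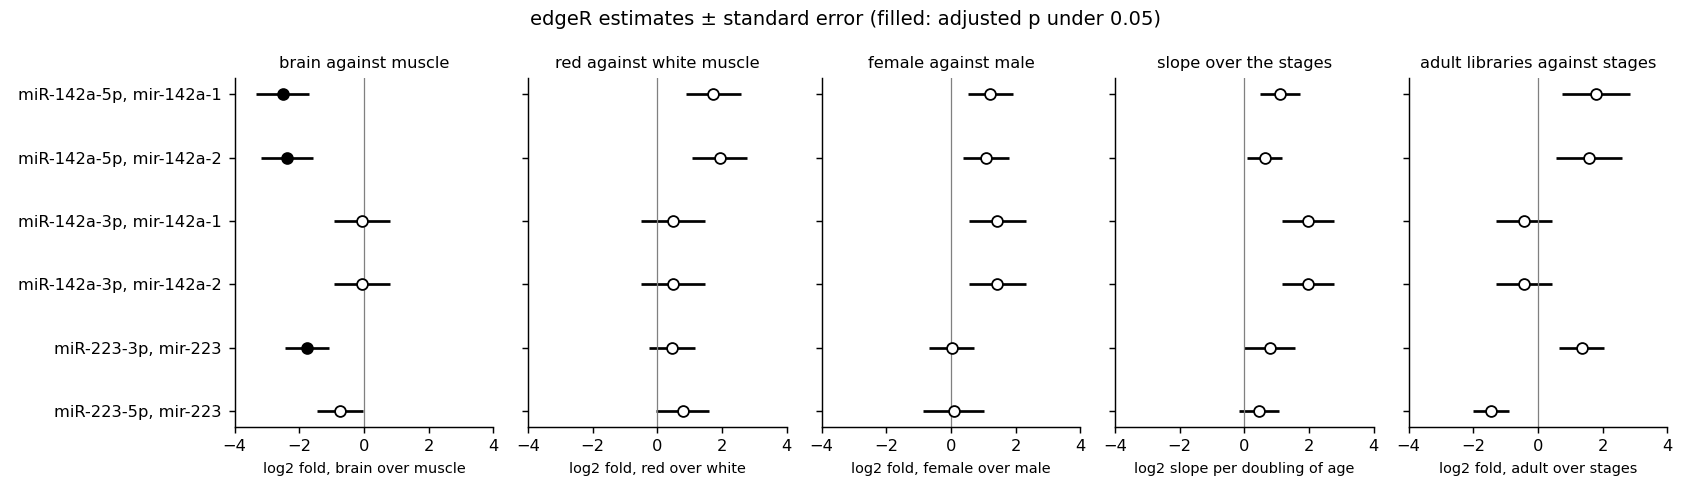
edgeR estimates with their standard errors for the 6 member entries in the 5 comparisons, on the log2 scale, filled where the adjusted p was under 0.05. The filled points are miR-142a-5p at both copies and miR-223-3p in brain against muscle, all below 0.

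Over the stages 0 of the 6 entries passed a trend against the log2 of age, where 8.54% of 527 entries passed. The slope per doubling of age was 1.96 for miR-142a-3p at either copy (standard error 0.80, edgeR adjusted p = 0.0932), 1.12 for miR-142a-5p at mir-142a-1 (standard error 0.62, adjusted p = 0.243 from edgeR) and 0.62 at mir-142a-2 (standard error 0.54, adjusted p = 0.525 from edgeR). It was 0.78 for miR-223-3p and 0.45 for miR-223-5p, with standard errors of 0.80 and 0.62. The unadjusted p was under 0.05 for the 2 entries of miR-142a-3p, which hold the same reads and which DESeq2 called (slope 1.92, adjusted p = 0.0308), as it did 13.9% of all entries. The slope of miR-142a-3p was 3.14 without 10 dpf and 1.26 without 2 dpf, and at mir-142a-2 that of miR-142a-5p was 0.22 and 1.48. For miR-223-3p the slope was 1.53 and 0.49 in the same order. Much of the rise in CPM was shared by other miRNAs. The median slope over all entries was 1.20 with library totals alone and 0.15 with the TMM factors of the fit. With TMM factors from the divided counts of all 16 libraries, miR-142a-5p stood at 184, 124, 166.5, 306 and 610 CPM at 2, 3, 4, 5 and 10 dpf. On this scale 2 dpf lay above 3 and 4 dpf, and 10 dpf was 4.91-fold above the lowest stage.

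**Figure D5:**
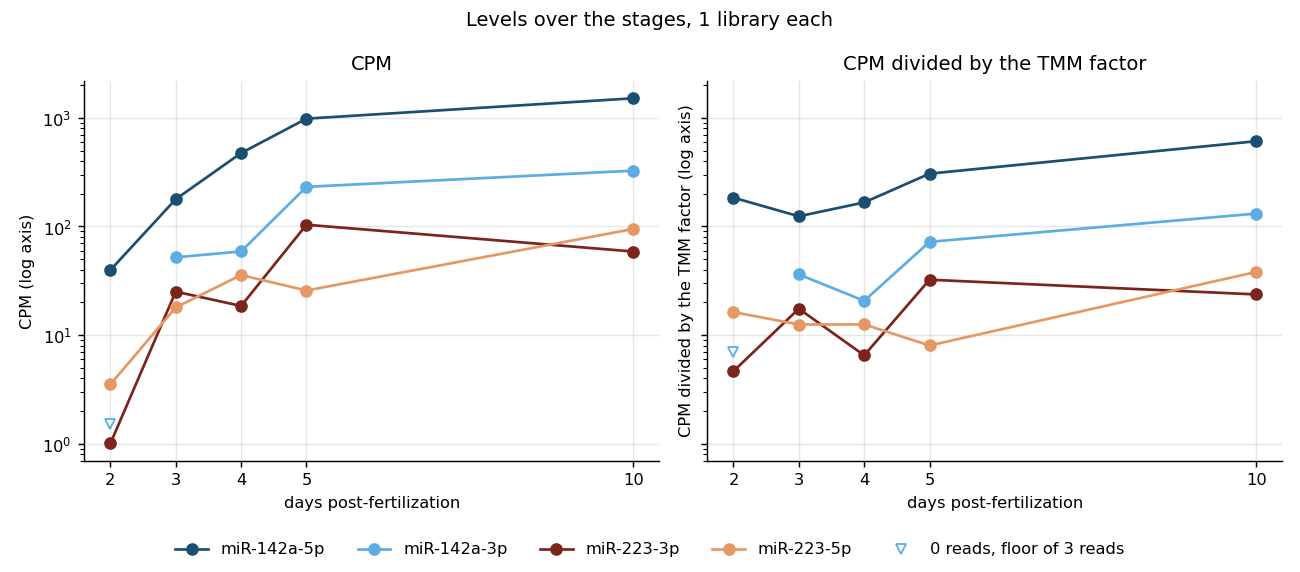
Levels of the 4 mature miRNAs at 2, 3, 4, 5 and 10 days post-fertilization, 1 library each, in CPM on the left and in CPM divided by the TMM factor on the right, on log axes, with an open triangle for the floor of 3 reads of miR-142a-3p at 2 dpf. miR-142a-5p climbs from 39.7 to 1514 CPM on the left and runs from 124 to 610 on the right.

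The sum of the red cell miRNAs took another course over the same stages, with its 3 dpf peak mostly from miR-144-5p. miR-144 and miR-451 together were at 809 CPM at 2 dpf, 25988 CPM at 3 dpf, 20311 CPM at 4 dpf, 10930 CPM at 5 dpf and 7043 CPM at 10 dpf. In the same order, miR-144-5p alone was at 705, 24040, 12581, 7025 and 2004 CPM. miR-451-5p-2 was at 70.4, 1162.5, 5659, 3066 and 4202 CPM, and so did not peak at 3 dpf. Per 1000 reads of miR-144 and miR-451 together there were, in the order of the stages, 49.1, 6.86, 23.3, 89.9 and 215 reads of miR-142a-5p. This ratio was thus lowest at 3 dpf, when the sum peaked. In adults it was lowest in eye at 17.5 and ovary at 21.3 and highest in testis at 785. The strands in the sum differed between libraries, red muscle of the sexes included, which limits this ratio. miR-144-5p and miR-451-5p-2 made 113 and 51.0 of 2996 CPM in ovary and 146 and 327 of 1968 CPM in eye. The red muscle libraries, which differed by 6.64-fold in CPM, were at 210 in the female and 143.9 in the male on this ratio. For miR-142a-3p they were at 3.86 and 0.956. For miR-223-3p the ratio ran from 0.914 at 4 dpf to 33.3 in male brain, with a median of 10.1, and was 4.26 in female and 11.4 in male red muscle. In brain, where the CPM of miR-142a-5p and miR-223-3p was lower than in muscle, their ratios were 435 and 24.96 in the female and 238 and 33.3 in the male, within or above the 143.9 to 453 and 4.26 to 30.2 of the muscle libraries. These ratios are given without a test.

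Between adult libraries and stages the members did not pass edgeR's test either. Libraries of different tissues and stages stood as replicates in this comparison, so its spread includes tissue differences. Of 6 entries 0 passed, against 23.1% of 590 entries. miR-223-5p came nearest, with a log2 difference of adult over stages of -1.46 (standard error 0.56, adjusted p = 0.0666, unadjusted p = 0.0173 from edgeR), the 1 member with an unadjusted p under 0.05. Its partner miR-223-3p had 1.35 (standard error 0.71, adjusted p = 0.196 from edgeR). miR-142a-5p had 1.81 and 1.59 at mir-142a-1 and mir-142a-2, and these were 0.81 and 0.61 without female red muscle, a setting chosen after the data were seen. miR-142a-3p had -0.44 at either copy (standard error 0.87, adjusted p = 0.796 and 0.797 from edgeR). DESeq2 called miR-142a-5p at mir-142a-1 (1.95, adjusted p = 0.0309), miR-223-3p (1.63, adjusted p = 0.00362) and miR-223-5p (-1.11, adjusted p = 0.0363), beside 34.4% of all entries by that tool. Without 10 dpf the value of miR-223-5p was -0.71 (edgeR adjusted p = 0.393), and without 5 dpf it was -1.69 (edgeR adjusted p = 0.0440). With library totals alone the median of all entries moved from 0.20 to -1.13, and miR-223-5p passed with -2.53 (adjusted p = 0.00793 from edgeR), as did 25.6% of all entries, while 17.2% of the calls over all entries were higher in adults against 38.2% after TMM scaling. With each adult tissue weighted equally miR-223-5p was the 1 member that passed, while 65.4% of all entries did and their median was -2.25. With TMM scaling and edgeR, 0 of 28 entries of the wider blood list were higher in adults and 7 were lower, and 0 of 5 red cell entries passed. Over all 590 entries, 52 were higher and 84 lower. The 7 repeat miR-181b-5p-2 at mir-181b-1 and mir-181b-2 and miR-181a-3p-3 at mir-181a-1 and mir-181a-2.

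Several miRNAs followed the main strands across the libraries. Of 396 names with at least 10 CPM in at least 1 library, those most like miR-142a-5p by Pearson correlation of log2(CPM + 1) over the 16 libraries were miR-33-3p (r = 0.90), miR-126-5p (0.88), miR-210-3p (0.86), miR-33-5p (0.85) and miR-26a-3p-2 (0.82). After TMM scaling miR-33-5p, miR-126-5p, miR-33-3p and miR-26a-3p-2 held the first 4 places and miR-210-3p place 9. In mammals miR-33 lies in genes of sterol regulation and miR-126 in a gene of endothelium. miR-126-5p was highest where miR-142a-5p was, at 7662 CPM in female red muscle. Its partner miR-126-3p was instead highest in heart at 248620 CPM. For miR-223-3p the names most alike were miR-1388-5p (0.86), miR-1388-3p (0.85), miR-15a-5p (0.83), miR-101b-5p (0.82) and miR-26b-5p (0.81). In the same order, their Spearman values were 0.76, 0.83, 0.62, 0.73 and 0.67. After TMM scaling they held places 6, 5, 7, 1 and 2. All points share their library, depth and composition, and most conditions are a single library.

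The members correlated with each other to different degrees. Over 16 libraries, the correlation of log2(CPM + 1) was 0.72 between miR-142a-5p and miR-223-3p (Spearman 0.81), 0.64 between the strands of mir-142a (Spearman 0.64) and 0.43 between those of mir-223 (Spearman 0.51). Without the 2 libraries farthest from the median the values were 0.62, 0.47 and 0.33. After TMM scaling, the values over all 16 libraries were 0.60, 0.35 and -0.16, and without the 2 farthest libraries they were 0.56, 0.22 and 0.14, so that the sign for mir-223 depends on those libraries. The summed red cell miRNAs had 0.44 with miR-142a-5p and 0.51 with miR-223-3p, and 0.20 and 0.17 after TMM scaling. These values describe libraries that share depth and composition, and no difference between them was tested.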

How the data were processed

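Small RNA of 16 samples had been prepared with the TruSeq small RNA kit after Trizol extraction and sequenced on the Illumina GAIIx. The authors deposited, per arm and precursor locus, whole-number counts, with a read counted at every locus that it matches, and estimated counts, with a read of several loci split among them. The oreNil2 genome is named for the annotation, and DESeq is listed in the submitters' processing notes, with no version. Aligner, mismatches and counting tool: not given in the sources used here. Of 736 lines, 2 with no mature name and 0 reads were left out. Sex was read from the first letter of the titles and the study's tissue list, and the adults are given as 6 months old.

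Levels used the divided counts, summed per mature name. Whole-number totals were 1989045 to 27503766 per library and divided totals 833147 to 11517367. For the tests, edgeR 4.0.16 (TMM, glmQLFit, glmQLFTest; limma 3.58.1, R 4.3.3) was run on whole-number counts of entries that reached 10 reads in 2 or more libraries, with Benjamini-Hochberg adjustment over all entries tested and a threshold of 0.05. Standard errors are approximate, being the log2 value over the square root of F. DESeq2 1.42.0 was an alternative, beside other factors, no filter, divided counts, sex as a block and each library left out. Other steps used Python 3.11.15, numpy 2.4.6, scipy 1.17.1, pandas 2.3.3 and matplotlib 3.10.9. The scripts were tested on simulated data.

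Every member was named, with the 5 names most correlated with each main strand and, from each list of other cell types, the 2 most abundant names. The members and lists were chosen with earlier results of these data known. The summed lists ran, in stages and adults, from 809 to 25988 and 599 to 16962 CPM for red cells, 11946 to 173120 and 34157 to 255710 for other blood and immune cells, 1060 to 42240 and 4173 to 248820 for endothelium, 1648 to 42764 and 39.9 to 6906 for epithelium, 7774 to 57492 and 250.4 to 310650 for muscle, 2489 to 56106 and 304 to 88098 for neurons, and 80.0 to 5960 and 0.434 to 452230 for liver. The 2 most abundant names were miR-144-5p (105 to 24040 CPM over the 16 libraries) and miR-451-5p-2 (51.0 to 9275), miR-21-5p (2112 to 68326) and miR-181a-5p (367 to 74479), miR-126-3p (996 to 248620) and miR-126-5p (44.9 to 7662), miR-200a-3p (2.52 to 16246) and miR-200b-3p (4.17 to 8436), miR-1-3p (143.7 to 171910) and miR-206-3p (2.16 to 75831), miR-9-5p-2 (6.21 to 34167) and miR-124a-3p (0.282 to 30369), and miR-122-5p (0.434 to 450150) and miR-122-3p (0 to 2076), in the same order.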

Additional observations from a re-analysis of the deposited data

Results flagged for a closer look

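miR-142a-5p was flagged because the female and male libraries moved in opposite directions in different tissues. The ratio of female to male was 6.64 in red muscle (3559 against 536 CPM) and 2.77 in brain (395 against 142.5 CPM), but 0.698 in white muscle (505 against 723 CPM). This pattern was not particular to miR-142a-5p. The ratio for miR-223-3p was 0.813 in white muscle (0.651 to 1.01), 1.70 in red muscle and 1.14 in brain. In white muscle, miR-142a-3p and miR-223-5p had 1.04 and 1.13 in CPM. After TMM scaling all 4 names were lower in the female in white muscle and higher in red muscle and brain. There was 1 library of each sex in each tissue, and the difference between tissues was not tested. The female libraries of red and white muscle share a letter and number in their titles, from which the same fish was inferred.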

How the results depend on the processing

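The count of member entries that passed in brain against muscle was 3, and 1 with library totals only. It was 2 with sex as a block and with RLE factors, where miR-223-3p was lost. Over all 494 entries 312 passed, and 309 with library totals only, 297 with sex as a block and 305 with RLE factors. Without female red muscle, miR-142a-3p was higher in brain by 1.83, while miR-142a-5p at mir-142a-1 was at -1.11 and miR-223-3p at -1.23. Without male brain, miR-142a-5p at mir-142a-1 was at -1.61 and miR-223-3p at -1.31. The count thus depended on single libraries. In adults against stages it was 0, and 3 with DESeq2, 1 with library totals only, 1 with each adult tissue weighted equally (miR-223-5p, -1.55, adjusted p = 0.0364 from edgeR, where 386 of 590 entries passed against 136) and 0 to 1 with a library left out (miR-223-5p passed without 5 dpf and was at -0.71 without 10 dpf). For the slope it was 0, and 2 with DESeq2, which called 73 of 527 entries against 45 by edgeR. The counts of red against white muscle and of the sexes were 0 in all their alternatives. The cause of these changes was not tested.

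Directions turned mostly where values lay near 0. For miR-142a-3p in brain against muscle the value was 0.21 with RLE factors and with DESeq2, 0.15 with library totals, 0.075 with divided counts, 0.051 with sex as a block, and -0.55 (without male red muscle) to 1.83 (without female red muscle) with a library left out, 0.62 without male brain. In red against white muscle it was -0.22 with sex as a block and -2.51 to 1.38 with a library left out, and miR-142a-5p at mir-142a-1 was at -0.26 to 2.50, the lowest of each without female red muscle and the highest without male red muscle. In adults against stages miR-142a-3p was at 0.13 with RLE factors, 0.11 with DESeq2 and -0.76 (without 2 dpf) to 0.51 (without 10 dpf), and miR-223-3p at -0.15 with library totals. Between the sexes miR-223-3p was at -0.11 with RLE factors and DESeq2, -0.047 without a filter, -0.053 without the tissue block, and -0.37 (without red muscle) to 0.25 (without white muscle), -0.16 without brain, and miR-223-5p at -0.046 with RLE factors and DESeq2 and -0.24 without red muscle. The slope of miR-223-5p ran from -0.65 (without 10 dpf) to 0.96 (without 2 dpf).

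The difference in the 5p share of mir-223 was 31.6 points with at least 20 reads, where the ranges overlapped (stages from 19.9%, adults up to 27.3%). With at least 50 reads and a stage left out it was 28.9 to 44.2 points. The exact permutation p was 0.0167 each time, the smallest that 3 against 7 can give. That p was fixed in advance by the lack of overlap at 50 reads and adds no support. In CPM, 130 of 192 values under another scaling moved by more than counting error. mir-223 had 9 reads at 2 dpf, which limits that stage.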

Other observations

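The 5p share of a red cell hairpin also lay apart between stages and adults. For mir-144 of red cells it averaged 87.8% over 5 stages and 36.2% over 11 adult libraries, with ranges that did not overlap, which placed it at 3 of 216 hairpins, and for mir-451-2 it averaged 98.5% and 99.9%. mir-19a-2, of the miR-17-92 family, was at 61.2% over 4 stages and 47.7 points lower over 7 adult libraries. These hairpins were picked after their values were seen, and no test was run on them.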
